A study of Mus musculus with 8 samples.

Results

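Aortas of mice labelled as a knockout of serum response factor (SRF) were compared with those of control mice. The myosin chains of smooth muscle and of non-muscle cells were examined, with the kinase that activates them. They are represented by the 14 probe sets, of 45037 on the Affymetrix arrays, that the platform annotation assigns to exactly 1 of the genes Myh11 (2 probe sets), Myh9 (5), Myh10 (2), Myl6 (1), Myl9 (1) and Mylk (3). All 14 passed the filter on dim probe sets, which dropped the dimmest 40%. Another 2 probe sets name Myl6 together with other genes and were left out by this rule. The mutant mice carried the genotype SRF-flex2neo -SM22CreERT2ki/+, labelled as a smooth muscle specific SRF knockout, in which a tamoxifen-inducible Cre was placed in an allele of the SM22 gene Tagln. The controls were SRF-flex2neo littermates, so both groups carried the floxed gene. The control genotype names no Cre, so effects of the Cre or of its Tagln allele cannot be told apart from those of SRF loss. All mice were given tamoxifen intraperitoneally, 1 mg for 3 days, were killed 8 days after it and were 4 month-old. There were 4 mutant arrays and 4 control arrays of whole aorta. The titles put them in 2 sets, each with 2 arrays of each genotype: mutants 3 and 4 with controls 3 and 4 in set 2, and mutants 1 and 2 with controls 1 and 2 in set 1. The labels explain neither the set number nor whether any 2 arrays share an animal. The p-values therefore rest on array-to-array spread alone, part of which may be technical.

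Class II myosin is a hexamer of a pair of heavy chains, a pair of essential light chains and a pair of regulatory light chains. In smooth muscle the heavy chain is mainly the product of Myh11. Myh9 and Myh10 encode the non-muscle heavy chains IIA and IIB, which serve cell shape, adhesion and migration in most cell types. Myl6 encodes the essential light chain and Myl9 a regulatory light chain. Mylk encodes myosin light chain kinase, which is switched on by calcium and calmodulin and phosphorylates the regulatory chain, and myosin phosphatase reverses that step.

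Values are log2 expression values as deposited, so a difference of 1 is a 2-fold change. Array medians lay between 3.72 and 3.98. Mutant 2 stood apart, with correlations across probe sets of 0.961 to 0.974 with the other 7 arrays, which correlated among themselves at 0.983 to 0.997. Differences that it moved by over 1.5 times are given without it as well. The brighter probe set of Srf was at 9.54 to 10.34 in mutants and at 10.15 to 10.52 in controls, a difference of -0.20 (SE 0.19, limma adjusted p = 0.686). Where it lies relative to the deleted part was not looked up here, so it does not check the deletion. Without mutant 2 the difference was -0.01. The dimmer Srf probe set differed by -0.03 (SE 0.15, limma adjusted p = 0.939), and by 0.065 without mutant 2. Its position was not looked up either. The aorta expressed the smooth muscle markers chosen to check the tissue label, since all 10 passed the filter on dim probe sets.

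Across the 14 probe sets, those of the smooth muscle heavy chain, the essential light chain and the kinase were lower in the mutant aorta, and the brightest probe set of Myh9 was higher. None of these differences passed the test. In limma, with genotype and set as terms, 0 of the 14 had an adjusted p under 0.05, as did 0% of the 27021 probe sets tested. At an unadjusted p under 0.05 there were 5 of 14, where 9.55% of all probe sets tested passed it. Of the 5, 4 were lower in mutants and 1 was higher, while 5.05% of all probe sets tested were lower and 4.5% higher at that p. Of the 14, 10 were lower in mutants, where 60% of all probe sets tested were. The median difference was -0.16 over the 14 and -0.04 over all probe sets tested. Probe sets of the same gene measure the same transcripts in part, so the 14 are not independent. The mutant and control arrays did not overlap in 3 of the 14, 2 of them lower and 1 higher in mutants, where 1.57% of all probe sets tested were lower and 1.43% higher without overlap.

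**Figure D1:**
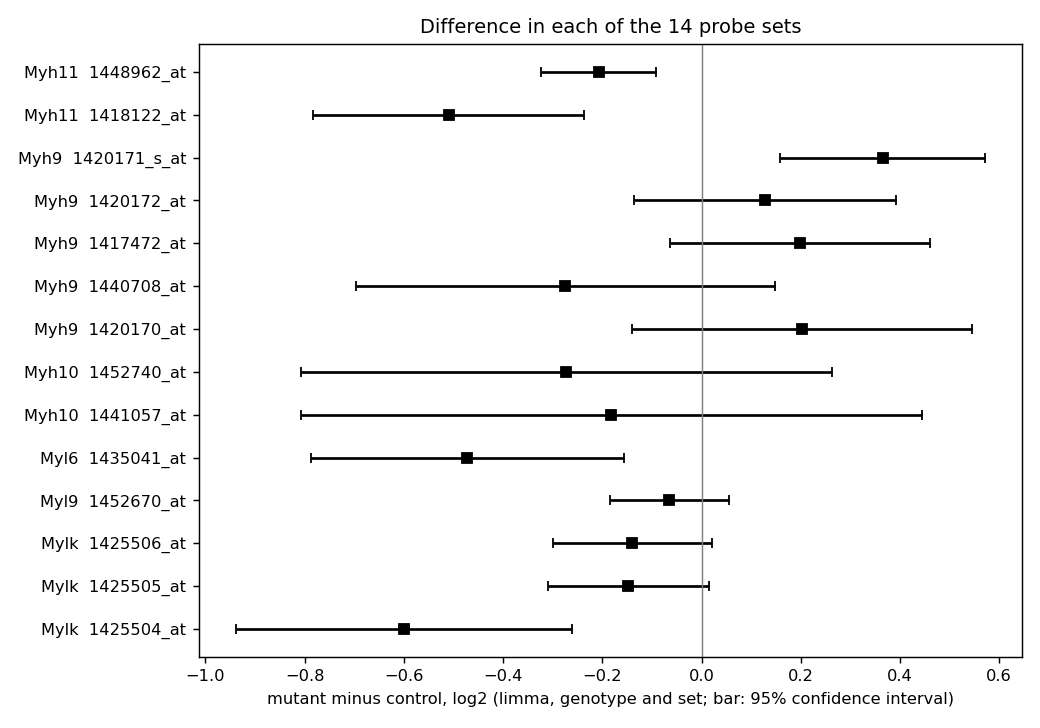
Difference between mutant and control aorta in each of the 14 probe sets (x axis, log2; squares, limma estimates; bars, 95% confidence intervals). The intervals of both Myh11 probe sets, Myl6 and 1 Mylk probe set lie below 0 and that of the brightest Myh9 probe set lies above 0, before any adjustment over probe sets.

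Myh11, the heavy chain that defines contractile smooth muscle, was lower in mutants in both of its probe sets. In whole tissue, fewer cells of a type and less RNA per cell cannot be told apart. The brighter one (1448962_at) was at 14.57, 14.46, 14.46 and 14.45 in mutants 1 to 4 and at 14.74, 14.71, 14.66 and 14.66 in controls 1 to 4. Every mutant array lay below every control array. The means were 14.48 ± 0.06 in mutants and 14.69 ± 0.04 in controls (SD, n = 4 each), which gave a difference of -0.21 (SE 0.05, 95% confidence interval -0.32 to -0.09), or 0.866 times the control level. In the same order, the dimmer one (1418122_at) was at 8.39, 8.06, 8.21 and 8.33 in mutants and at 8.99, 8.84, 8.64 and 8.56 in controls. Again the groups did not overlap, and the difference was larger, at -0.51 (SE 0.12, 95% confidence interval -0.78 to -0.24), or 0.702 times the control level. Both probe sets had a limma adjusted p of 0.384, and an exact permutation test that ignores the set (two-sided, 4 mutant and 4 control arrays) gave p = 0.0286 for both, the smallest it can give. Only 47 of the 45037 probe sets had a higher mean than the brighter Myh11 probe set. Without mutant 2 the differences were -0.19 and -0.41 (adjusted p = 0.353 and 0.35, over all settings 0.148 to 0.935). The brighter probe set differed by the same amount in both sets (-0.20 in set 2 and -0.21 in set 1), and the dimmer one by -0.33 in set 2 and -0.69 in set 1.

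**Figure D2:**
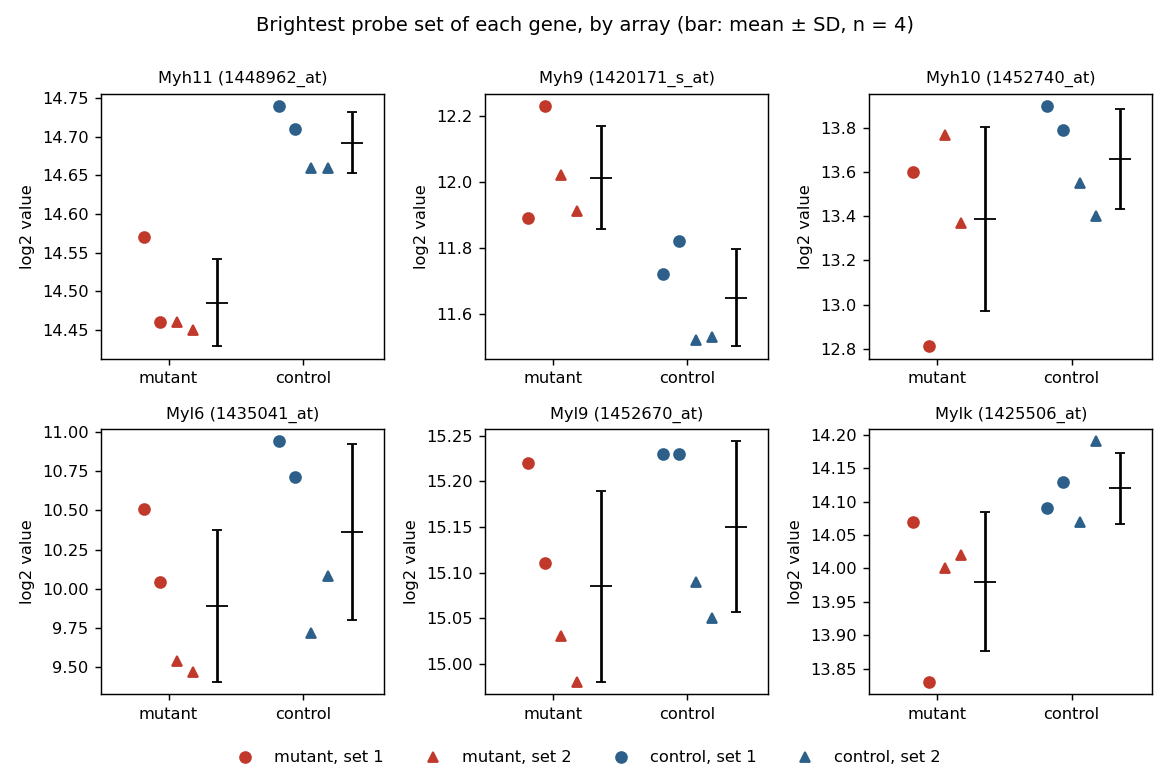
Log2 values of the brightest probe set of each gene in the 4 mutant and the 4 control arrays (triangles, set 2; circles, set 1), with the mean and SD of each group beside them; each panel has its own axis. Mutants and controls are apart in Myh11 (14.45 to 14.57 against 14.66 to 14.74) and in Myh9 (11.89 to 12.23 against 11.52 to 11.82), and overlap in the other 4 genes.

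Myh9, the non-muscle heavy chain IIA, was higher in mutants in 4 of its 5 probe sets, but only the brightest separated the groups. That probe set (1420171_s_at) was at 11.89, 12.23, 12.02 and 11.91 in mutants 1 to 4 and at 11.72, 11.82, 11.52 and 11.53 in controls 1 to 4. Every mutant array lay above every control array, with mutant 2 the highest. The means were 12.01 ± 0.16 in mutants and 11.65 ± 0.15 in controls (SD, n = 4 each). The difference was 0.36 (SE 0.09, 95% confidence interval 0.16 to 0.57), or 1.29 times the control level, with a limma adjusted p of 0.384 and an exact permutation p of 0.0286. It was 0.44 in set 2, 0.29 in set 1 and 0.31 without mutant 2 (adjusted p = 0.394, over all settings 0.212 to 0.935).

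The other Myh9 probe sets did not separate the groups, and 1 of them went the other way. 1420172_at was at 11.12 to 11.66 in mutants and 11.09 to 11.41 in controls, a difference of 0.13 (SE 0.11). Without mutant 2 it was 0.06, without control 1 0.07, without mutant 1 0.22 and without control 2 0.20. 1417472_at was at 9.20 to 10.33 in mutants and 9.10 to 9.91 in controls (difference 0.20, SE 0.11), and 1420170_at at 6.86 to 7.97 in mutants and 7.01 to 7.51 in controls (difference 0.20, SE 0.14). In these last 2 probe sets the difference was 0.005 and 0.01 in set 2 and 0.39 and 0.40 in set 1, and without mutant 2 it was 0.12 and 0.11. The dim probe set 1440708_at was lower in mutants, at 6.58 to 7.70 against 7.24 to 7.76 in controls (difference -0.28, SE 0.18, or -0.11 without mutant 2). The position of each probe set on the transcript was not used here.

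Myh10, the non-muscle heavy chain IIB, did not differ beyond the spread between arrays. Its bright probe set (1452740_at) was at 13.60, 12.81, 13.77 and 13.37 in mutants 1 to 4 and at 13.90, 13.79, 13.55 and 13.40 in controls 1 to 4. Mutant 2 was the lowest array, and the others overlapped. The difference of -0.27 (SE 0.23, 95% confidence interval -0.81 to 0.26, limma adjusted p = 0.668) was -0.04 without mutant 2, 0.10 in set 2 and -0.64 in set 1. The dim probe set 1441057_at was at 5.67, 5.43, 7.37 and 6.82 in mutants and at 6.19, 6.25, 6.46 and 7.12 in controls. In set 2 mutant 3 was the highest of all arrays, while in set 1 both mutants lay below both controls. The difference was -0.18 (SE 0.26, adjusted p = 0.791), -0.04 without mutant 2, 0.31 in set 2 and -0.67 in set 1.

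Within each array, the difference between the brightest probe sets of Myh9 and Myh11 was higher in mutants. The log2 difference Myh9 minus Myh11, set to a mean of 0 in controls, was 0.37, 0.82, 0.61 and 0.51 in mutants 1 to 4 and 0.03, 0.16, -0.10 and -0.09 in controls 1 to 4. It is made of the values given above and adds no independent measurement. The same quantity for Myh10 minus Myh11 was 0.06, -0.62, 0.34 and -0.05 in mutants and 0.19, 0.11, -0.08 and -0.23 in controls. Here the groups overlapped, and mutant 2 was the lowest array and mutant 3 the highest.

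Of the light chains, the essential chain Myl6 was lower in mutants of both sets, and the regulatory chain Myl9 had a difference near 0. The promoter sequences of these genes are shown because SRF binds DNA at the CArG box, a pair of C, 6 bases of A or T and a pair of G. The RefSeq promoter table (build GRCm38.p6; 250 bases before to 50 after each start) held 6 windows of 5 of the 6 genes and none of Myh11. Of these windows, 2 held a CArG box, 1 of Myl9 and 1 at a second start of Myl6 inside the gene. Of all 32851 windows 1.63% held one; the box reads as the same pattern on both strands. No box was found in the windows of Myh9, Myh10 and Mylk or at the first Myl6 start, which says only that these letters are not there. The bases before the start that surround the 2 boxes are printed 5′ to 3′ on the strand of the gene, with the box in capitals. The Myl9 stretch is chr2:156775258-156775357 on the plus strand, with the box starting at position -161 from the start. The Myl6 stretch is chr10:128493010-128493104 on the minus strand, with the box starting at position -50.
Myl9: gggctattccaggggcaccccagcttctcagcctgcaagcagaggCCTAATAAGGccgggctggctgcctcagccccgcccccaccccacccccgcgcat
Myl6: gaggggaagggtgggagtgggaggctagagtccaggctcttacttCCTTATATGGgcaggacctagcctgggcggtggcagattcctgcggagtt

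Myl6 (1435041_at) was at 10.51, 10.04, 9.54 and 9.47 in mutants 1 to 4 and at 10.94, 10.71, 9.72 and 10.08 in controls 1 to 4. The groups overlapped over all arrays, because set 2 was lower as a whole, but within each set both mutants lay below both controls. The means were 9.89 ± 0.49 in mutants and 10.36 ± 0.56 in controls (SD, n = 4 each). With the set as a term the difference was -0.47 (SE 0.13, 95% confidence interval -0.79 to -0.16, limma adjusted p = 0.443), or 0.721 times the control level. The exact permutation test, which takes no account of the set, gave p = 0.2286. The difference was -0.40 in set 2, -0.55 in set 1 and -0.36 without mutant 2. Myl9 (1452670_at), among the brightest on the array with 7 probe sets above it, was at 15.22, 15.11, 15.03 and 14.98 in mutants and at 15.23, 15.23, 15.09 and 15.05 in controls. Both sets gave a difference of -0.06 (SE of the joint fit 0.05, 95% confidence interval -0.18 to 0.05, adjusted p = 0.655), and it was -0.04 without mutant 2. Myl9 has no dimmer probe set here, whereas the bright probe sets of Myh11 and Mylk gave smaller differences than the dim ones. Whether the top of the scale limits the difference of Myl9 was not tested.

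Mylk, the light chain kinase, was lower in mutants in all 3 probe sets, by little in the bright 2 and by more in the dim one. 1425506_at was at 14.07, 13.83, 14 and 14.02 in mutants 1 to 4 and at 14.09, 14.13, 14.07 and 14.19 in controls 1 to 4, a difference of -0.14 (SE 0.07, adjusted p = 0.558). 1425505_at was at 13.54 to 13.79 in mutants and 13.79 to 13.90 in controls, a difference of -0.15 (SE 0.07, adjusted p = 0.552). The groups touched at single arrays in both, and mutant 2 was the lowest array in both. Without mutant 2 these differences were both -0.09 (adjusted p = 0.704 and 0.668, over all settings 0.444 to 0.935). The dim probe set 1425504_at was at 8.95, 8.43, 8.08 and 8.45 in mutants and at 9.41, 9.38, 8.67 and 8.85 in controls. As in Myl6, the groups overlapped over all arrays and were apart within each set. The difference was -0.60 (SE 0.14, 95% confidence interval -0.94 to -0.26, adjusted p = 0.384), or 0.66 times the control level, and -0.47 without mutant 2. Within-set separation with the same direction in both sets was seen in 6 probe sets that were lower in mutants, both of Myh11, those of Myl6 and Myl9 and 2 of Mylk, and in 1 that was higher, the brightest of Myh9. Of all probe sets tested 6.17% were lower and 4.11% higher by this rule. Mylk gives rise to kinases of different length and to telokin, the carboxy-terminal part expressed on its own, and which of these each probe set detects was not examined here.

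**Figure D3:**
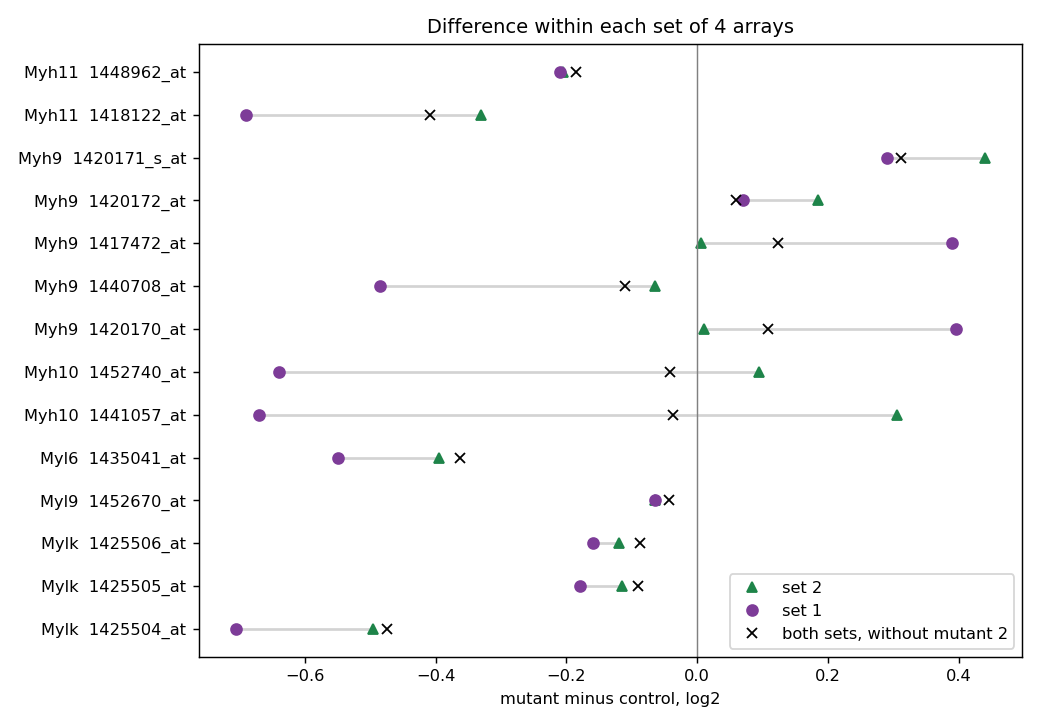
Difference between mutant and control arrays (x axis, log2) within set 2 (triangles) and within set 1 (circles), and over both sets without mutant 2 (crosses), for the 14 probe sets. Myh11, Myl6, Myl9 and Mylk lie below 0 in both sets, while the Myh10 probe sets lie at 0.10 and 0.31 in set 2 and at -0.64 and -0.67 in set 1.

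More of the 14 probe sets passed the test between sets than between genotypes. Both Myh11 probe sets (-0.06 and -0.135) and the brightest of Myh9 (-0.17) differed less between sets than between genotypes. In the same fit, 5 of the 14 probe sets differed between set 2 and set 1 at a limma adjusted p under 0.05, where 21.4% of all probe sets tested did. Myl6 was lower in set 2 by 0.85 on the log2 scale, at 9.70 in set 2 and 10.55 in set 1 (SE 0.13, adjusted p = 0.00624). Among the Myh9 probe sets, 1417472_at fell by 0.81 (SE 0.11, adjusted p = 0.00385) and 1420170_at by 0.56 (SE 0.14, adjusted p = 0.0347), while 1420172_at (0.22) and 1440708_at (0.48) had higher means in set 2 and did not pass (adjusted p = 0.195 and 0.0992). The dim Mylk probe set differed by -0.53 (SE 0.14, adjusted p = 0.04), and the dim Myh10 probe set by 1.06 (SE 0.26, adjusted p = 0.0318). The calls of these last 2 and of 1420170_at were lost in most of the other settings, and the calls of Myl6 and 1417472_at held in all 11. The bright probe sets of Myh11, Myh10, Myl9 and Mylk did not pass (differences -0.16 to 0.04). Whether the genotype difference itself differed between sets was tested with an interaction term: 0 of 14 passed, as against 0.0518% of all probe sets tested, and 0 had an unadjusted p under 0.05, where 5.12% of all did. The lowest unadjusted p was 0.0528, for the dim Myh10 probe set, whose difference was higher by 0.97 in set 2.

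Markers of the other cell types of the vessel wall differed in the same arrays, and their part in these results was not tested. All 12 endothelial markers tested were higher in mutants (median difference 0.95), as were 10 of 11 fibroblast markers (1.01) and all 12 leukocyte markers tested (1.08), whereas all 10 smooth muscle markers were lower (-0.26, or -0.17 without mutant 2). None of these genes had a limma adjusted p under 0.05. The 10 smooth muscle differences ran from -0.78 to -0.015. The smooth muscle markers and their mean include Tagln (-0.29), the gene that holds the Cre in an allele of the mutants. At an unadjusted p under 0.05, 9 endothelial, 9 fibroblast and 11 leukocyte markers were higher in mutants, and 4 smooth muscle markers and the fibroblast marker Mfap5 were lower (Mfap5 by 0.61 on the log2 scale, or by 0.37 without mutant 2). Of all probe sets tested, 4.5% were higher and 5.05% lower at that p, and 60% were lower whatever their p. Relative to the mean of the 8 arrays, the mean of the smooth muscle list lay between -0.19 and -0.13 in mutants and between 0.06 and 0.20 in controls. That of the endothelial list lay between -0.32 and 1.56 in mutants and between -0.92 and -0.02 in controls, that of the fibroblast list between 0.23 and 0.56 in mutants and -0.86 and 0.32 in controls, and that of the leukocyte list between -0.01 and 1.24 in mutants and -0.996 and -0.05 in controls. The leukocyte markers Itgam, Cd3e and Cd79a were too dim to be tested. Adipocyte markers (6 of 6 tested higher, median 1.22) and Schwann cell markers (4 of 4 tested higher, median 1.12) were highest in mutant 2, the array with the lowest values of the bright Myh10 and Mylk probe sets, and without it their medians were 0.48 and 0.40. The adipocyte median was 0.60 without control 1. In set 2 the median difference was 0.49 for endothelial, 0.44 for leukocyte, -0.47 for adipocyte and 0.24 for Schwann cell markers, and in set 1 it was 1.36, 1.83, 2.76 and 2.01 in the same order. For smooth muscle markers it was -0.13 in set 2 and -0.34 in set 1, and for fibroblast markers 0.76 in set 2 and 1.23 in set 1. The adipocyte list thus lay on opposite sides of 0 in the 2 sets.

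**Figure D4:**
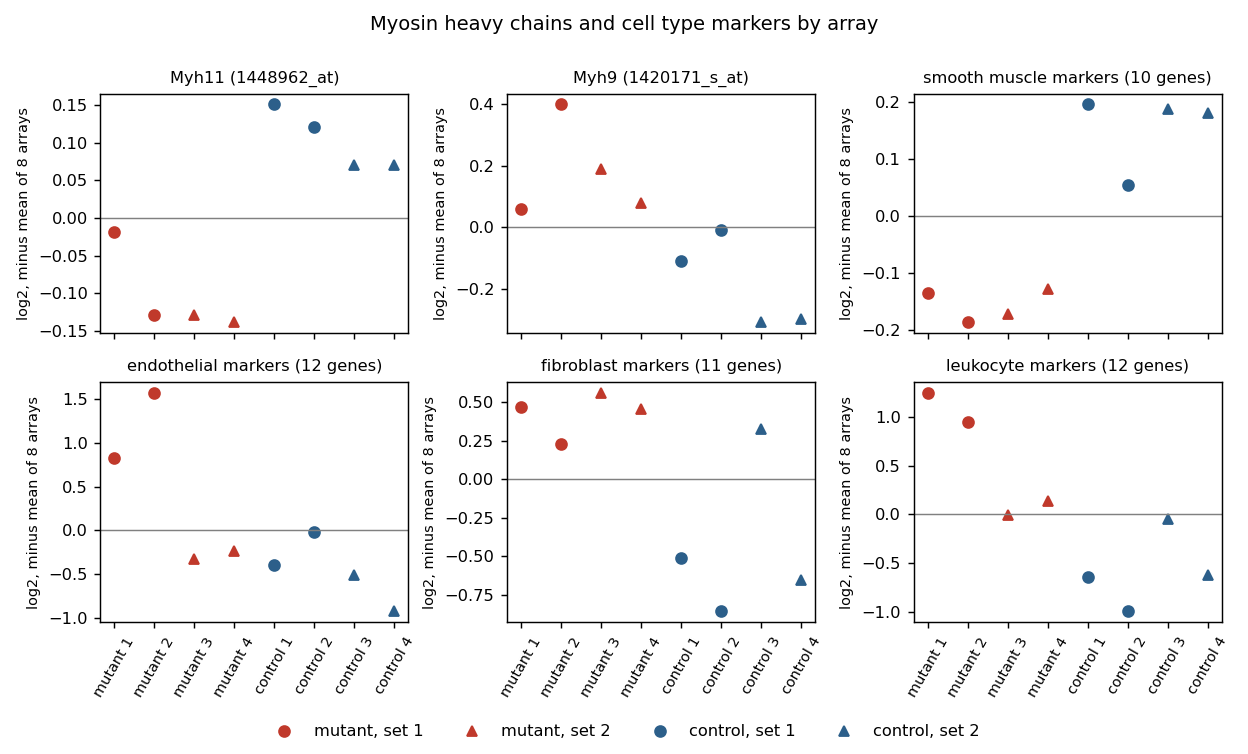
Brightest probe sets of Myh11 and Myh9 and the mean of each marker list in every array (y axis, log2 minus the mean of the 8 arrays; each panel has its own axis; triangles, set 2; circles, set 1). The smooth muscle list is below 0 in all 4 mutants and above 0 in all 4 controls, as is Myh11, while the endothelial and leukocyte lists are highest in mutants 1 and 2.

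Across the 8 arrays, each taken relative to the mean of its set, the members also varied together. These correlations include the genotype difference itself, rest on the same 8 arrays and are given as descriptions. Myh11 went with Myl6 (r = 0.91), Myl9 (0.85) and Mylk (0.84), each in its brightest probe set, and less with Myh10 (0.58). Myh9 ran against Myh11 (r = -0.95), Myl6 (-0.87), Mylk (-0.85) and Myl9 (-0.84), and less against Myh10 (-0.49). With the mean of the marker lists, Myh11 had r = 0.97 for smooth muscle and -0.88 for endothelium, and Myh9 had r = -0.93 and 0.78. Myh10 had its strongest negative value with the adipocyte list (-0.94), where mutant 2 is the extreme array. Among 12173 genes, the 5 whose brightest probe set was most like that of Myh11 by this measure were Ppp1r14a (r = 0.99), Tnrc18 (0.98), the tropomyosin gene Tpm1 (0.98), Tagln (0.98) and the cytoskeletal adaptor Pdlim7 (0.98). The Cre of the mutants sits in an allele of Tagln, which is also in the smooth muscle list. Those most like Myh9 were Phgdh, an enzyme of serine synthesis (0.98), Rnf135 (0.97), Ifi35 (0.96), Rgl2 (0.96) and Jcad, a protein of endothelial cell junctions (0.95).

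The enzymes that set the phosphorylation of myosin were examined as 2 lists. Of 10 genes of myosin phosphatase and its inhibitors, 9 were tested, with 6 lower, 3 higher and a median difference of -0.13 (-0.04 over all probe sets tested; -0.19 without mutant 1 or without control 3). None had an adjusted p under 0.05, and 3 were lower at an unadjusted p under 0.05. Of all probe sets tested, 5.05% were lower at that p and 60% were lower whatever their p. Ppp1r14a, which encodes the smooth muscle phosphatase inhibitor CPI-17, was at 12.96, 12.78, 12.47 and 12.41 in mutants 1 to 4 and at 13.43, 13.50, 13.04 and 13.01 in controls 1 to 4. Every mutant lay below every control, and within each set by about the same amount (-0.58 in set 2 and -0.60 in set 1; joint difference -0.59, SE 0.06, limma adjusted p = 0.102). The myosin-binding subunits Ppp1r12b (-0.35, SE 0.10, adjusted p = 0.443), Ppp1r12a (-0.30, SE 0.11, adjusted p = 0.494) and Ppp1r12c (-0.21, SE 0.13, adjusted p = 0.594) were lower too, Ppp1r12a by less without mutant 2 (-0.19). Of the catalytic subunits, Ppp1cb, which serves in myosin phosphatase, differed by -0.12, Ppp1cc by 0.07 and Ppp1ca by 0.01 (SE 0.09, 0.05 and 0.05). The inhibitor genes Ppp1r14b and Ppp1r14c differed by 0.22 (SE 0.10) and -0.08 (SE 0.22; 0.13 without mutant 2), and Ppp1r14d was too dim to be tested.

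Of 20 genes listed as kinases, calmodulins and other regulators of the light chain, 15 had a probe set of their own and 13 were tested, with 11 lower, 2 higher and a median of -0.16 (-0.26 without mutant 1). None passed, and at an unadjusted p under 0.05 there were 1 lower and 1 higher, while 5.05% of all probe sets tested were lower and 4.5% higher at that p. Whatever their p, 60% of all probe sets tested were lower. The gene with the smallest p was Dapk1, a kinase of cell death that can phosphorylate the regulatory light chain, at 8.79, 8.71, 8.93 and 8.52 in mutants and 8.22, 8.11, 8.37 and 7.98 in controls. Its groups did not overlap (difference 0.57, SE 0.12, adjusted p = 0.384). The integrin-linked kinase Ilk differed by -0.22 (SE 0.11, adjusted p = 0.558), and by -0.12 without mutant 2.

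The other myosin genes had medians near 0, which changed sign in some settings (-0.03 to 0.09 in heavy chains, -0.19 to 0.11 in light chains and -0.07 to 0.10 in unconventional myosins). Of 11 other class II heavy chains 6 were tested, with a median of 0.06 and 0 with an unadjusted limma p under 0.05, and the 4 with the smallest p were Myh14 (0.37), Myh3 (0.09), Myh4 (-0.02) and Myh7 (-0.52). Myh7 was at 10.58, 4.70, 6.12 and 5.54 in mutants 1 to 4 and at 6.31 to 8.59 in controls, and without mutant 2 its difference was 0.66. Myh14, the third non-muscle heavy chain, was at 2.94 to 4.11 in mutants and 2.75 to 2.96 in controls, with mutant 2 the highest; without that array it was too dim to be tested. Myh6, the heavy chain of atrial heart muscle and of the adult mouse ventricle, spread from 4.49 to 11.15 over the mutants and from 4.41 to 11.54 over the controls (difference 0.13, or -0.50 without mutant 2). In both genotypes Myh6 was higher in set 2 (9.77 to 11.54) than in set 1 (4.41 to 7.66). Of 11 other light chains 9 were tested, with a median of -0.09 and 0 at that p. Among them, Myl3 (0.54), the non-muscle regulatory chain Myl12b (0.28), Myl6b (-0.19) and Myl4 (-1.25) had the smallest p. Myl4 was at 6.06 to 7.74 in mutants and at 7.28, 6.69, 11.34 and 7.39 in controls 1 to 4, with control 3 alone high. Without mutant 2 the difference of Myl12b was 0.17. Myl12a, the other non-muscle regulatory chain, differed by -0.09 (SE 0.10), and by 0.005 without mutant 2. The atrial chain Myl7 was at 2.23 to 3.72 in mutants and at 2.24, 2.28, 10.73 and 2.72 in controls 1 to 4, so that control 3 alone was high here too. Without control 3 the median of the light chain list was 0.11. Of 24 unconventional myosins 15 were tested, with a median of 0.00 and 0 at that p. Myo7a (0.65), Myo9b (-0.48), Myo6 (0.44) and Myo1f (0.16) had the smallest p, and Myo7a was at 0.36 without mutant 2. Myo1f was dim, at 2.98 to 3.19 in mutants and 2.82 to 3.07 in controls. Its control mean of 2.935 lay below the lowest mean kept by the filter (2.97), so it was tested only because of the mutant values. The same held for Myo5b (0.78), the largest difference of this list, with a control mean of 2.72 and mutant 2 at 6.69. Without mutant 2, Myo5b was too dim to be tested.

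**Figure D5:**
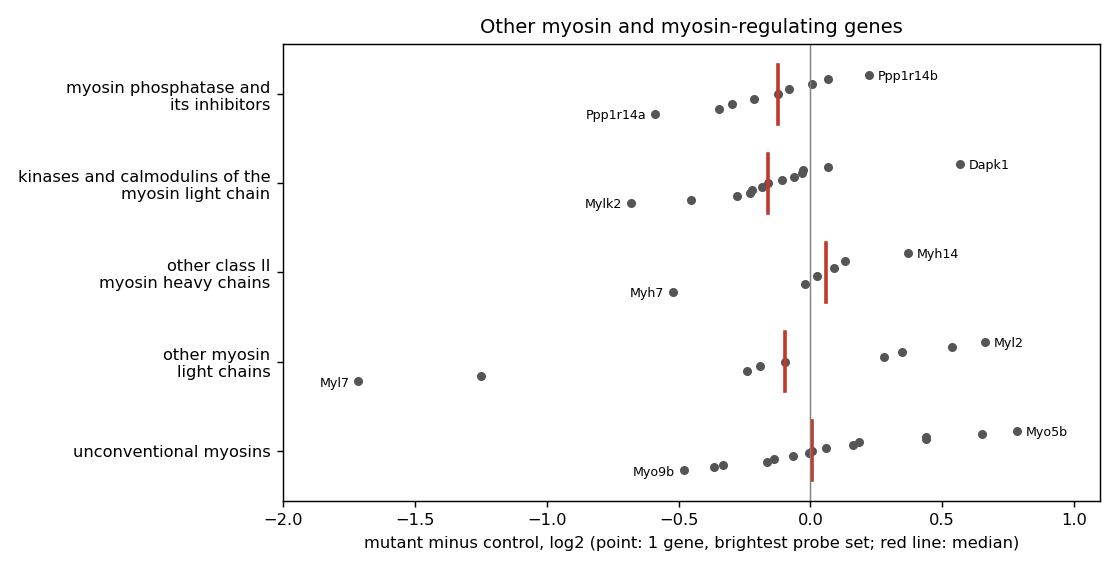
Difference between mutant and control aorta (x axis, log2) of each tested gene in the 5 lists of other myosin and myosin-regulating genes, with the median of each list as a red line. The medians of the phosphatase (-0.13) and kinase (-0.16) lists lie below 0, those of the other myosin lists between -0.09 and 0.06.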

How the data were processed

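The deposited table holds log2 expression values, 1 per probe set and array, which were taken to be on a common scale. Per the labels' protocols, 2 ug of RNA from a fibrous tissue kit was labelled. GCOS is named in the submitters' processing notes; for background correction, normalization and summarization no source used here names a method. That they are log2 values follows from their span, 0.90 to 15.82. Values were used as deposited, with no per-sample column unused. No 2 arrays shared over 24.7% of values. Replicate numbers follow sample order and so pair nothing.

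Genes were named from the platform annotation (34945 probe sets with 1 symbol, 932 with several, 9160 with none). Probe sets were ranked by mean and the dimmest 40% dropped (27021 kept, lowest mean 2.97). Genotype and set were the terms of a limma fit (version 3.58.1, R 4.3.3) with its trend option on. Its two-sided p-values were adjusted by Benjamini-Hochberg over all probe sets tested, with a threshold of 0.05. The interaction came from a second fit with their product. A gene in a list was represented by its brightest probe set. Named genes were all members, all tested phosphatase genes, up to 4 with the smallest p from each list and the 5 most like Myh11 and Myh9; markers were given as counts and medians. Some genes this rule names are not reported here. Myl12a, Myl7, Myh6, Myo5b and Mfap5 were named after their values were seen. The members and lists were chosen with earlier results of these data known. Alternatives were no filter and a stricter one (60%), quantile normalization, median centring, no set term, the set as a random block, no trend, array weights, each array left out and each set alone. The fit was tested on 3 simulated tables with 200 changed probe sets each. Of differences of 0.5, 23.2% had an adjusted p under 0.05, and of differences of 1, 59.6%. Of differences of 2, 85.9% did, and each table held 5.33 false calls on average. These shares are averages over probe sets of all spreads, simulated with independent noise, and so give no rate for a single member. In such tables most differences of 0.5 were missed. Figures were drawn with Python 3.11.15. The number of arrays limits the precision.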

Additional observations from a re-analysis of the deposited data

Results flagged for a closer look

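In the brighter Myh11 probe set, mutant 1 was at 14.57 and the other 3 mutants were at 14.45 to 14.46, so mutant 1 stood apart from its group while still lying below all controls. In the Myh9 probe set 1420172_at, control 1 was at 11.09 and the other 3 controls were all at 11.41. These were the 2 groups, of 28 groups of 4 arrays examined, in which the gap of the outermost array to its neighbour exceeded Dixon's 95% critical value for groups of 4, and chance flags about 1 in 20 groups.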

How the results depend on the processing

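No member probe set passed an adjusted p of 0.05 between mutant and control under any of the 18 alternatives, and 4 to 7 had an unadjusted p under 0.05. The number of all probe sets at that p ran from 1279 of 27021 (no set term) to 3353 of 27021 (array weights). Of the 14 differences, 12 kept their sign in all 18. The exceptions were both Myh10 probe sets, which were at 0.10 (1452740_at) and 0.31 (1441057_at) in set 2 alone; the cause was not tested. Without the set as a block, the differences stayed as given and 0 probe sets passed. Over all probe sets the number passing was 2 with the set as a random block, 10 with array weights, 0 to 11 with 1 array left out (11 without control 3) and 0 otherwise. Between sets, 5 member probe sets passed, against 2 with no filter, 3 with median centring and 2 to 6 with 1 array left out: 2 without control 1, control 4 or mutant 3, and 3 without control 2, control 3, mutant 1 or mutant 4. With 1 array left out, 1 genotype had only 1 array in 1 of the sets, so only the size of the interaction is given. Without mutant 1, mutant 2 was the only mutant of set 1, and the interaction of the bright Myh10 probe set was 1.13, against 0.735 with all arrays. Leaving out mutant 2 moved the differences of both bright Mylk probe sets, Myl9, both Myh10 and 4 of 5 Myh9 probe sets by over 1.5 times, among them to -0.09 in both bright Mylk probe sets and -0.04 in Myl9 and both Myh10 ones. Other single arrays moved 5 member differences by over 1.5 times: 1420172_at to 0.07 to 0.22 (control 1, control 2, mutant 1), 1440708_at to -0.18 (control 1), 1420170_at to 0.13 (control 2) and 0.33 (mutant 3), 1452740_at to -0.18 (control 1) and -0.43 (mutant 3), and 1441057_at to -0.10, -0.07, -0.41 and -0.39 (control 1, control 2, control 3 and mutant 3). Median centring moved the median of all probe sets to -0.11. With it the difference of the brighter Myh11 probe set was -0.28, that of Myl9 -0.14 and that of 1420172_at 0.055.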
